A study of Paspalum vaginatum with 72 samples.

Results

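Seashore paspalum (Paspalum vaginatum) is a halophytic turfgrass that spreads by stolons, and the roots of its salt-sensitive accession USA17-26 after 5 days of salt are described here against roots of the same accession without salt. These 6 libraries, 3 per group, were chosen by their labels out of the 72 of the series. The salt libraries are labelled 400 mM NaCl and 5 days, and the controls are labelled CK and time 0. The methods describe salt raised in daily steps to that concentration, and non-stressed plants harvested on the fifth day as well, so the age of the controls is not settled by the sources used here. Roots of the salt-tolerant accession, USA17-18 in the labels, gave 3 control and 3 salt libraries of the same labels for comparison. Both accessions were grown hydroponically from stolons in a full nutrient solution, so each accession is 1 vegetatively propagated line, and the methods take 6 plants as a biological replicate. No allele, transgene or further agent is named for any group.

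Roots in saline solution meet both a low water potential and sodium. Plants are known to answer the first through abscisic acid, a hormone that turns on protective late embryogenesis abundant (LEA) proteins and dehydrins, and through small solutes such as proline and raffinose sugars. They answer the second by moving sodium and potassium across membranes with proton-driven carriers, and by barriers of lignin and suberin around the inner root. Nutrient uptake carriers sit in the same outer cells and are turned up or down with the supply and demand of the plant.

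The deposited values are fragments per kilobase of transcript, scaled to the size of the library (FPKM) for 27743 gene models, and changes are given as log2 fold changes, which here are differences of mean log2(FPKM + 1) between 3 salt and 3 control libraries. On this scale the change of a gene with low FPKM is understated. A gene was called when its adjusted p was at most 0.05 and its change at least 1.5 on the log2 scale, in limma's moderated test across 21233 tested genes (1 FPKM or more in at least 3 of the 12 root libraries of both accessions). In sensitive roots 2738 genes were called, or 12.9% of those tested. Of these 1660 rose (7.82% of tested genes) and 1078 fell (5.08%), and in 2624 of the 2738 the 3 salt libraries did not overlap the 3 controls. The thresholds themselves favour genes without overlap, and the share over all tested genes is not given, so that count is no separate support for the calls. In tolerant roots, under the same thresholds, 661 genes rose (3.11%) and 559 fell (2.63%). The median change over all tested genes was 0.02 in sensitive and 0.02 in tolerant roots, on values already scaled to the library. Genes that rose held 2.15 to 2.81% of the summed FPKM in the sensitive controls and 16 to 17.3% in the salt libraries, and genes that fell went from 15 to 17.5% down to 2.68 to 3.36%.

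The libraries carried their labels but were not equally alike. Of genes at 10 FPKM or more in all 3 controls of one accession and under 1 in all 3 of the other, 43 marked the sensitive and 26 the tolerant accession, and each salt library followed its label, with summed values of 552 to 936 against 5.2 to 64.5 FPKM for the first set and 475 to 556 against 6.7 to 18.6 for the second. Sensitive controls correlated with each other at a mean r of 0.977 to 0.983 across genes, the salt libraries at 0.927, 0.942 and 0.905, and salt library 3 was the least like the others. Among the 1660 genes that rose, salt library 3 was more than 3 times above both other salt libraries in 177 and more than 3 times below both in 159, while 556 had all 3 salt libraries within a factor of 2. Depth, estimated from the smallest steps between low FPKM values, was 0.714 to 1.0 times the series median in the 6 libraries. The 18 root markers were nitrate transporters, silicon transporters, Casparian strip membrane proteins and nicotianamine synthase. They summed to 3021 to 4563 FPKM in controls and 769 to 1143 in salt, and to 3017 to 3588 and 982 to 1117 in tolerant roots. In sensitive roots 8 of the 18 were themselves called as falling, so the sum does not check the tissue apart from the salt response. Photosynthesis genes, used as leaf markers, summed to 473 to 572 FPKM in controls, to 2480, 859 and 530 in salt libraries 1, 2 and 3, and to 5520 to 94153 in the leaf libraries of the series. In bulk tissue, fewer cells of a type cannot be told apart from less RNA per cell. Nothing in the labels says more of the origin of the replicates, so p-values measure the spread between these libraries.

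The largest changes ran from defence-type proteins to regulators. Root-specific lectin (emOS52.23), a sugar-binding protein by name, had 4.98, 2.47 and 3.08 FPKM in controls and 1186, 2093 and 1034 in salt (8.29, SE 0.30, adjusted p = 1.34e-07). Chitinase 9 (emFS27.13), of a family that cuts the chitin of fungal walls, went from 1.63, 1.88 and 0.45 to 799, 934 and 286 (8.07, SE 0.75, adjusted p = 2.12e-05). Both rose in tolerant roots too, by 6.07 and 3.48. Hydrophobic protein RCI2A (emOS55.719), a small membrane protein of cold and salt stress, rose from 0.74, 0.54 and 0.11 to 71.0, 72.1 and 618 (6.69), with salt library 3 far above the others. Cortical cell-delineating protein (emOS114.513), named after a maize root cortex protein, went from 1.60, 22.4 and 6.24 to 1241, 1212 and 201 (6.47, SE 1.25, adjusted p = 0.002) and was not called in tolerant roots (0.72). On the falling side 2 genes named RADIALIS-like 3, small MYB-type factors, went from 264, 165 and 197 to 1.71, 0.48 and 7.56 (emOS55.465, -5.99) and from 78.2, 57.2 and 69.4 to 0, 0.16 and 0.97 (emFS18.535, -5.71). The factor bHLH84 (emOS55.142) fell from 141, 91.1 and 88.2 to 1.12, 4.91 and 2.44 (-4.91). All of these salt libraries lay outside the range of the controls, as the rule for naming these genes required.

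Genes of dehydration protection were among the strongest rises. The list of abscisic acid and dehydration genes had 46 tested members, of which 10 rose and 7 fell, with a median change of 0.14. The LEA protein of group 3 (emFS1.189, chromosome 9, 44285361 to 44286834 in the deposited coordinates) had 0.69, 5.70 and 1.87 FPKM in the controls and 272, 531 and 3103 in salt. Its change was 7.91 (SE 0.83, adjusted p = 4.43e-05), and salt library 3 stood far above the other salt libraries. LEA proteins of this kind are known to protect other proteins and membranes while cells lose water. Dehydrin DHN3 (emFS9.217) went from 0, 0.06 and 0 FPKM to 44.0, 54.2 and 475 (6.70, SE 0.70, adjusted p = 4.55e-05). Late embryogenesis abundant protein 31 (emOS181.40) went from 1.30, 1.39 and 2.12 to 106, 95.0 and 761 (6.27, SE 0.65, adjusted p = 4.21e-05). In all 3 genes salt library 3 was the highest, and in all 3 every salt library lay above every control. The homeobox-leucine zipper factor HOX24 (emOS174.653), whose rice namesake is known to respond to drought and abscisic acid, went from 0.35, 1.80 and 0.37 to 54.9, 81.3 and 254 (5.93, SE 0.53, adjusted p = 1.63e-05). Tolerant roots showed the same direction for these 4 genes, at 7.71, 3.63, 3.65 and 5.23, each called.

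Abscisic stress-ripening protein 1 (emFS22.1208), a small plant protein of water deficit, separated the accessions more. It had 18.2, 18.9 and 13.3 FPKM in sensitive controls and 231, 186 and 400.5 in salt (3.88, SE 0.47, adjusted p = 1.13e-04). In tolerant roots it had 28.2, 41.2 and 68.8 in controls and 35, 48.6 and 125 in salt, groups that overlap. The difference between the accessions was 3.41 with an adjusted p of 0.0519, just outside the threshold. In the other direction a desiccation-related protein named after PCC13-62 of the resurrection plant (emOS55.1090) fell from 353, 260.5 and 527 FPKM to 11.9, 18.5 and 20.9 (-4.37, SE 0.30, adjusted p = 3.48e-06).

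Solute genes moved in both directions. Proline accumulates in many salt-stressed plants, and delta-1-pyrroline-5-carboxylate synthase 2 (emFS18.1840), the enzyme that commits glutamate to proline, went from 12.2, 19.6 and 18.3 FPKM to 324, 186 and 242. Its change of 3.82 (SE 0.28, adjusted p = 4.66e-06) came with a fall of proline dehydrogenase 2 (emOS55.1752), which breaks proline down, from 43.4, 33.6 and 41.6 to 11.9, 5.2 and 17.4 (-1.82, SE 0.51, adjusted p = 0.0137). Without salt library 2 the dehydrogenase was no longer called. Of the 6 tested genes of proline synthesis and breakdown these were the only ones called. Among raffinose, trehalose, inositol and betaine genes 5 of 34 rose and 6 fell. Galactinol synthase 1 (emOS55.911), which makes the donor for raffinose, had 5.64, 10.1 and 6.65 FPKM in controls and 77.6, 104 and 1098 in salt (4.66, SE 0.82, adjusted p = 0.00112). Inositol-3-phosphate synthase (emOS55.55), the first step of inositol synthesis, went from 8.54, 8.05 and 7.06 to 52.5, 65.1 and 81.1 (2.90, SE 0.20, adjusted p = 4.17e-06). Galactinol-sucrose galactosyltransferases, which make raffinose from that donor, rose in 3 of 7 tested genes and fell in 2, with the same counts in tolerant roots. The rises were 4.43 (emOS99.410), 4.38 (emFS24.314) and 3.59 (emOS56.152), and the gene named 1 (emFS0.155) fell by 2.41.

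Sugar genes rose in number in sensitive roots, and most of them in tolerant roots too. Of 83 tested genes of sucrose metabolism and sugar transport 17 rose, or 20.5%, and 7 fell, against 13 and 3 in tolerant roots. Of the 17 that rose 11 were called as rising in tolerant roots. SWEET proteins let sugars pass out of cells, and 7 of 14 tested SWEET genes rose and 0 fell, against 4 and 0 in tolerant roots. The grouping by name was made after the values were seen. SWEET12 (emOS55.1103) had 0, 0.04 and 0.05 FPKM in controls and 29.4, 28.7 and 55.0 in salt (5.17, SE 0.25, adjusted p = 6.54e-07). SWEET13 (emFS25.54) rose by 2.91 and SWEET14 (emOS104.7) by 3.32. These 3 carriers were called in tolerant roots too, at 5.65, 2.88 and 3.42. SWEET1a (emFS4.459) was not, going from 0.35, 1.51 and 0.71 to 74, 19.9 and 10.4 in sensitive roots (3.86, SE 0.95, adjusted p = 0.0072). Tolerant roots had 2.57, 4.98 and 20.2 in controls and 3.98, 2.68 and 32.8 in salt, which overlap. The difference of 3.71 did not pass (adjusted p = 0.176). Without library 3 of both salt groups, a setting chosen after the values were seen, it was 5.31 (adjusted p = 0.0105). In that setting 7.82% of all 20781 tested genes differed in either direction.

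**Figure D1:**
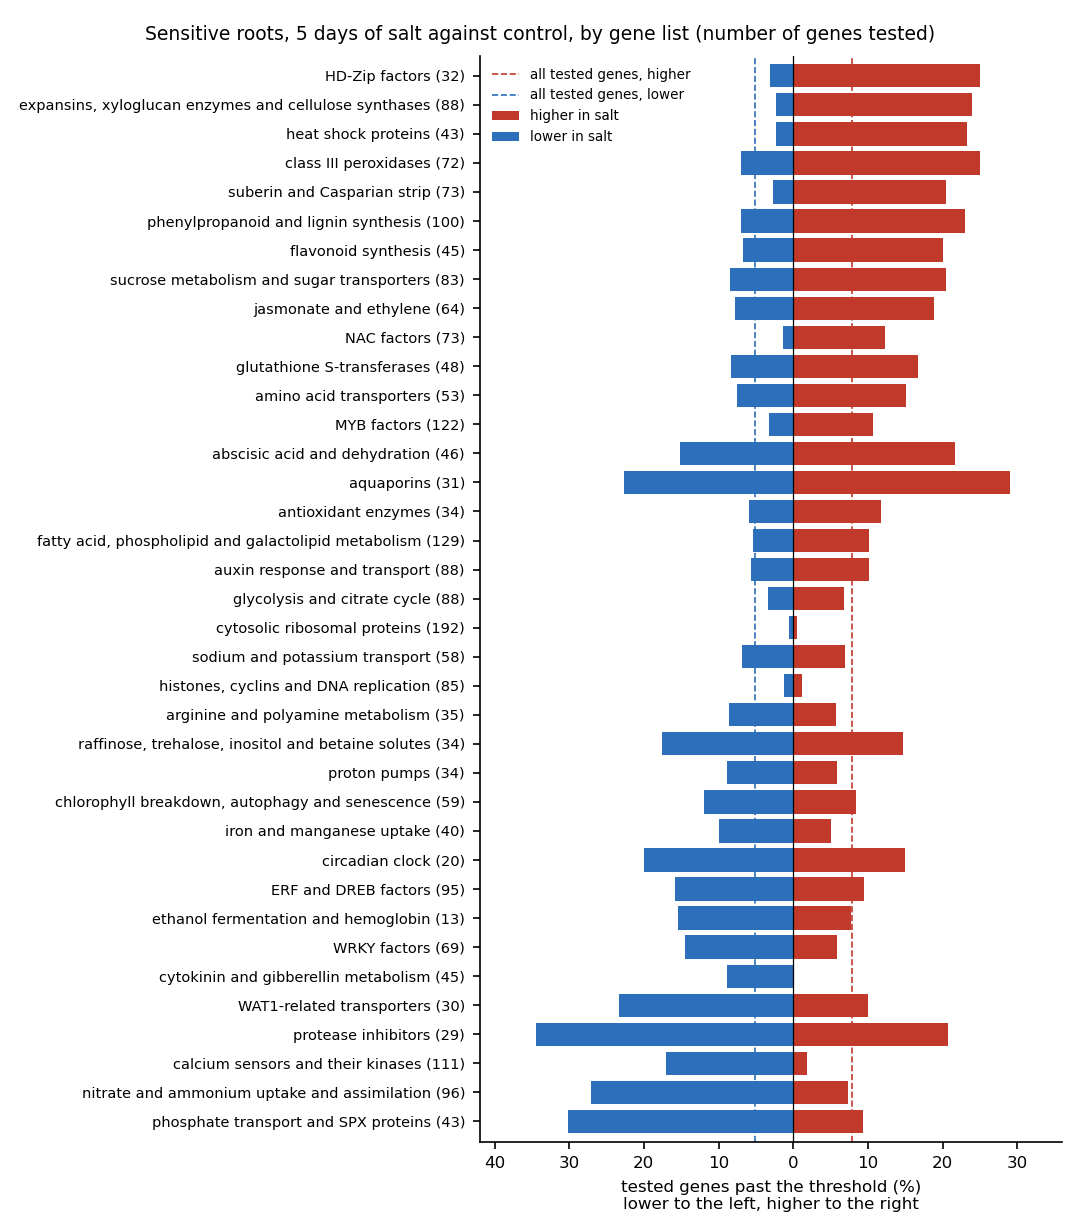
Percent of the tested genes of each plotted list that rose (red, to the right) or fell (blue, to the left) in sensitive roots after 5 days of salt, with the number tested in brackets and dashed lines at 7.82% and 5.08%, the shares of all tested genes. The proline, respiratory burst oxidase, leaf-marker and root-marker lists are not plotted. Aquaporins and protease inhibitors stand high on both sides, wall, peroxidase, lignin and suberin lists mainly on the right, and nitrate, phosphate and calcium lists mainly on the left.

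Water channels split by subfamily. Of 31 tested aquaporin genes 9 rose and 7 fell. Plasma membrane intrinsic proteins (PIPs), the main water channels of the root cell membrane, rose in 7 of 8 tested genes and fell in 0, and nodulin-26-like proteins (NIPs), which also carry small solutes such as silicic acid, fell in 6 of 12 and rose in 0. This grouping by annotation name was made after the values were seen. PIP2-5 (emFS22.468) had 49.4, 59.9 and 36.1 FPKM in controls and 1681, 1439.7 and 1074 in salt (4.83, SE 0.25, adjusted p = 7.70e-07). PIP1-6 (emOS49.372) went from 6.02, 6.90 and 6.57 to 91.1, 92.9 and 17.8 (2.87, SE 0.50, adjusted p = 0.00108), with salt library 3 the lowest of the salt libraries. Among the NIPs 2 genes share the name NIP2-1, which in rice marks the silicon influx channel Lsi1. The first (emOS36.581) fell from 335, 234 and 258 FPKM to 8.63, 5.90 and 6.25 (-5.12, SE 0.27, adjusted p = 9.35e-07), and the second (emOS174.12) from 121, 87.8 and 91.1 to 2.3, 2.57 and 1.95 (-4.94). The silicon efflux transporter LSI3 (emOS55.1729) fell alongside, from 279.7, 311 and 242 to 7.04, 15.1 and 10.3 (-4.61, SE 0.40, adjusted p = 1.31e-05). Controls and salt lay far apart in each of these silicon genes. Reads shared by same-named copies could not be told apart, which holds for all pairs of one name below. Tolerant roots changed likewise, by 4.02 for PIP2-5 and by -3.94, -4.23 and -2.85 for the silicon genes.

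Genes of potassium transport moved both ways, and most sodium and potassium carriers were not called. Of 58 tested genes of sodium and potassium transport 4 rose and 4 fell, shares close to those of all genes. Potassium transporter 1 (emFS22.1351), of the high-affinity HAK family that draws potassium from dilute solution, had 314, 256 and 311 FPKM in controls and 12.7, 10.3 and 13.6 in salt (-4.48, SE 0.20, adjusted p = 5.00e-07). The inward potassium channel AKT1 (emFS18.596) fell from 232, 173 and 238 to 43.6, 49.7 and 72.5 (-1.95, SE 0.21, adjusted p = 4.61e-05). Both fell in tolerant roots as well, by 4.23 and by 2.38 on the log2 scale. Potassium transporter 21 (emOS43.297), by name a relative of the first, rose from 1.71, 3.06 and 1.31 to 11.4, 16.6 and 16.9 (2.42, SE 0.50, adjusted p = 0.00294). The putative potassium transporter 8 (emOS55.1032) rose from 0.5, 2.88 and 2.1 to 20.4, 14.1 and 7.16 (2.40, SE 0.56, adjusted p = 0.00564). These rises were not called in tolerant roots, and their differences between accessions did not pass the test (adjusted p = 0.422 and 0.304). Among 34 tested proton pump genes, which power this transport, 2 rose and 3 fell. The vacuolar pyrophosphate-energized pump 1 (emOS120.132) fell from 39.7, 25.5 and 34.4 FPKM to 5.97, 7.66 and 7.17 (-2.09, SE 0.19, adjusted p = 2.12e-05). A gene named plasma membrane ATPase 1 (emOS99.1241) rose from 15.1, 22.8 and 14.9 to 58.4, 81.3 and 59.0 (1.86), and another of the same name (emOS124.302) fell from 19.9, 81.1 and 65.2 to 7.85, 13.6 and 9.67 (-2.12, adjusted p = 0.00221).

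Nutrient uptake genes fell in large numbers. Of 96 tested genes of nitrate and ammonium uptake and assimilation 26 fell, or 27.1%, and 7 rose, with a median change of -0.34. High-affinity nitrate transporters (NRT2), which take up nitrate from low concentrations, fell in 5 of 8 tested genes. NRT2.3 (emFS18.927) had 1797, 1028 and 1466 FPKM in controls and 15.9, 20.7 and 52.2 in salt (-5.70, SE 0.41, adjusted p = 4.36e-06). An NRT2.2 gene (emOS79.107) fell from 559, 284 and 479.8 to 4.96, 8.66 and 18.4 (-5.35), and a second one (emOS79.101) from 464, 230.0 and 405 to 8.46, 15.2 and 22.9 (-4.51). The plastid glutamine synthetase (emFS6.255), which binds ammonium into glutamine, fell from 569, 368 and 556 to 20.4, 38.3 and 42.1 (-3.88, SE 0.25, adjusted p = 2.38e-06). The root isozyme 2 of the same enzyme (emOS99.1097) went the other way, from 0.56, 0.38 and 0.28 to 17.4, 9.36 and 37.8 (3.80, SE 0.40, adjusted p = 4.70e-05). Without salt library 1 the rises of this list were 14. In tolerant roots 14 of its genes fell and 5 rose.

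Phosphate genes fell in 13 of 43 tested members, or 30.2%, and rose in 4, with a median of -0.89. A gene named inorganic phosphate transporter 1-2 (emOS130.230) went from 363, 228 and 546 FPKM to 25.5, 13.2 and 11.4 (-4.42, SE 0.44, adjusted p = 3.22e-05). In tolerant roots this copy stood at 16.6, 17.6 and 19 in controls, and the second copy (emOS80.115) at 559, 419 and 568, against 226, 145 and 348 in sensitive controls. SPX proteins are phosphate sensors that are turned on when phosphate is short, and 6 of 9 tested SPX genes fell and 1 rose, a grouping made after the values were seen. SPX domain-containing protein 5 (emOS154.41) fell from 308, 235 and 293 to 31.5, 24.6 and 25.7 (-3.31, SE 0.16, adjusted p = 6.54e-07). Iron and manganese genes moved less broadly, with 2 of 40 rising and 4 falling. Ferritin-1 (emOS113.58), the iron store of plastids, rose from 16.9, 27.1 and 18.2 to 169.9, 138 and 172 (2.91), and the iron carrier Fe(2+) transport protein 2 (emOS99.1341) fell from 11.5, 6.95 and 6.52 to 0.34, 0.46 and 0.3 (-2.73, SE 0.28, adjusted p = 4.43e-05).

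**Figure D2:**
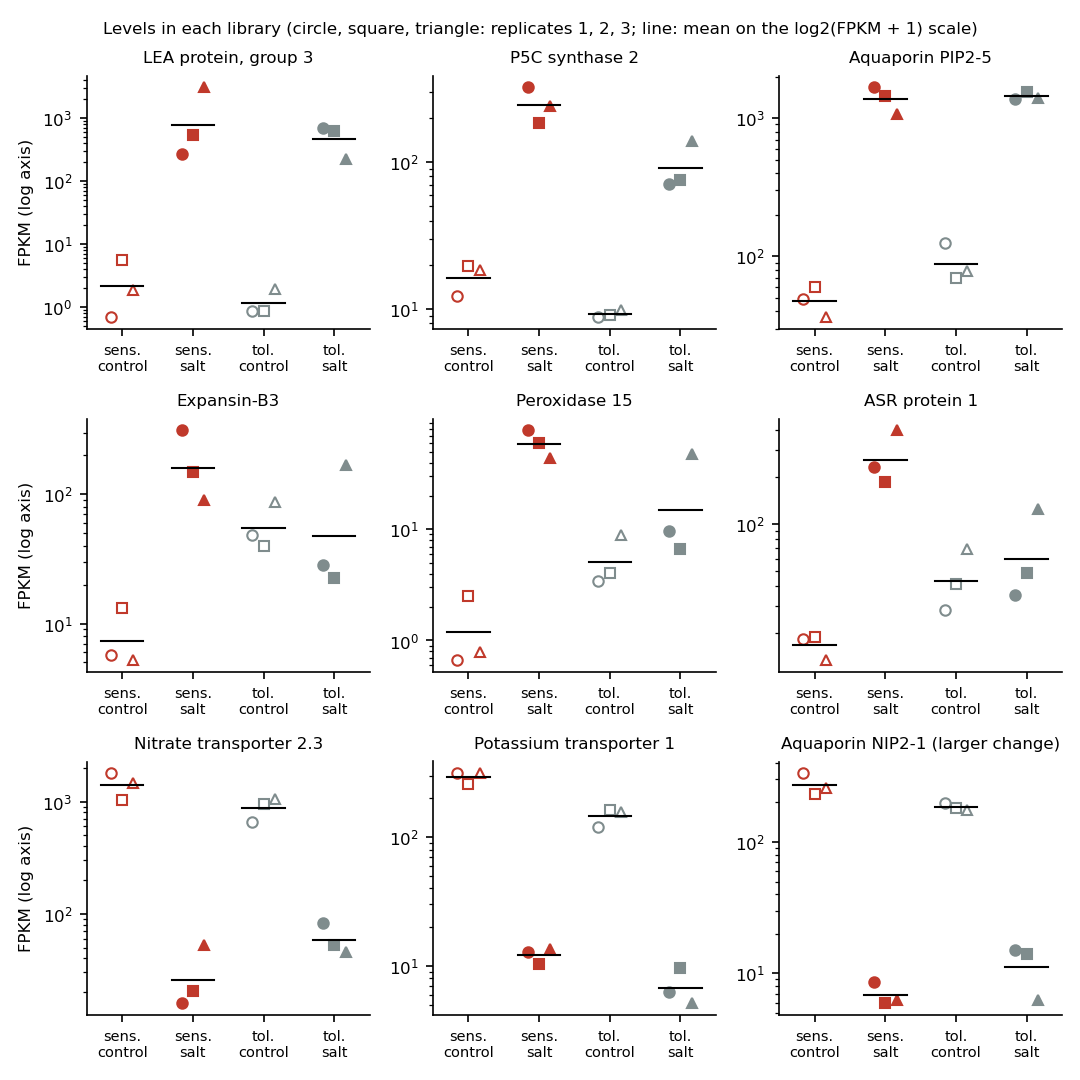
FPKM of 9 genes in each of the 12 libraries on log axes, with open symbols for controls, filled symbols for salt, red for sensitive and grey for tolerant roots, and a line at the mean on the log2(FPKM + 1) scale. Nitrate transporter 2.3, potassium transporter 1 and the silicon channel NIP2-1 fell in both accessions, whereas Expansin-B3 stood at 5.18 to 13.2 FPKM in sensitive controls and at 39.7 to 87.2 in tolerant controls before salt.

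Cell wall genes rose in sensitive roots, and 0 of them were called as rising in tolerant roots. Expansins loosen the wall, xyloglucan endotransglucosylases cut and rejoin its tethers, and cellulose synthases lay down its fibres. Of 88 tested genes of these families 21 rose in sensitive roots, or 23.9%, and 2 fell, with a median change of 0.74, while in tolerant roots 0 rose and 1 fell. Expansin-B3 (emOS55.1776) had 5.70, 13.2 and 5.18 FPKM in sensitive controls and 314, 148 and 89.7 in salt (4.27, SE 0.72, adjusted p = 9.04e-04). In tolerant roots it had 48.2, 39.7 and 87.2 in controls and 28.4, 22.4 and 169 in salt (-0.20, adjusted p = 0.871). Tolerant salt library 3 thus stood with the sensitive salt libraries rather than with its own group. Expansin-B11 (emOS174.590) went from 1.88, 1.5 and 1.53 to 44.4, 87.4 and 29.3 in sensitive roots (4.23, SE 0.53, adjusted p = 1.5e-04), and a xyloglucan endotransglucosylase/hydrolase named 32 (emOS91.986) from 0.48, 0.58 and 0.22 to 23.7, 18.1 and 8.38 (3.53, SE 0.50, adjusted p = 2.87e-04). All 3 tested cellulose synthase A genes rose, with a median change of 3.01. In tolerant roots their median change was 1.79, although 0 of them were called. The one named subunit 9 (emOS91.22), a name given to secondary wall subunits in rice, went from 3.38, 11.1 and 1.25 to 51.4, 95.9 and 11.3 (3.01, SE 0.77, adjusted p = 0.00902). Without sensitive control library 3 the rises of the list were 13.

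None of these wall genes passed the test of the difference between accessions with all 12 libraries. The difference was 4.47 for Expansin-B3 (adjusted p = 0.0708), 3.43 for Expansin-B11 (0.0645) and 3.33 for the xyloglucan enzyme (0.057). With library 3 of the 5-day salt groups left out in both accessions, a setting chosen after the values were seen, 30 of 86 tested wall genes had a larger response in sensitive roots and 0 a smaller one, where 7.82% of all 20781 tested genes differed in either direction. In that setting the difference was 5.79 for Expansin-B3 (adjusted p = 0.00192), 4.25 for Expansin-B11 (0.00515) and 4.37 for the xyloglucan enzyme (4.77e-04).

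Peroxidases, lignin and suberin genes rose together with the wall genes. Class III peroxidases are secreted enzymes that use hydrogen peroxide, among other tasks, to couple lignin units. Of 72 tested peroxidase genes 18 rose, or 25%, and 5 fell, and in tolerant roots 2 rose and 3 fell. Cationic peroxidase SPC4 (emFS15.17) went from 8.60, 11.3 and 10.2 FPKM to 271, 345 and 327 (4.83, SE 0.30, adjusted p = 2.05e-06), and was called in tolerant roots too (3.15). Peroxidase 15 (emFS6.724) rose from 0.66, 2.52 and 0.79 to 78.5, 59.5 and 43.7 in sensitive roots (4.78, SE 0.62, adjusted p = 1.81e-04). In tolerant roots it had 3.42, 4.07 and 8.99 in controls and 9.72, 6.71 and 47.9 in salt, which overlap. Without sensitive control library 3 only 10 peroxidases were called as rising. With library 3 of both salt groups left out, the setting chosen after the values were seen, 23 of 72 responded more in sensitive roots and 2 less.

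Of 100 tested genes of phenylpropanoid and lignin synthesis 23 rose, or 23%, and 7 fell, against 6 and 7 in tolerant roots, and without any 1 of the controls the falls were 4. Cinnamoyl-CoA reductase 1 (emOS158.37), the first enzyme given over to lignin, had 10.7, 32.1 and 13.5 FPKM in controls and 138, 229.6 and 88.0 in salt (2.99, SE 0.45, adjusted p = 4.51e-04). Dirigent protein 5 (emOS91.1870), of a family that steers the coupling of lignans, fell from 56.8, 36.4 and 55.4 to 0.2, 0.25 and 0.35 (-5.29, SE 0.17, adjusted p = 9.03e-08) and by 5.30 on the log2 scale in tolerant roots. Suberin and Casparian strip genes rose in 15 of 73 tested, or 20.5%, and fell in 2, against 5 and 1 in tolerant roots. CASP-like protein 2U1 (emFS12.12), related to the scaffold proteins of the Casparian strip, went from 1.58, 1.03 and 0.75 FPKM to 30.4, 32.7 and 15 in sensitive roots (3.62, SE 0.29, adjusted p = 8.57e-06). In tolerant roots it had 3.53, 4.22 and 3.79 in controls and 8.61, 10.2 and 15.3 in salt (1.32), and the difference of 2.3 passed the test (adjusted p = 0.0437). Cytochrome P450 86B1 (emOS80.32), a hydroxylase of suberin acids, rose from 0.51, 0.54 and 0.06 to 15.4, 11.2 and 1.80 (2.61, SE 0.72, adjusted p = 0.0127), where salt library 3 was low.

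Many genes called in sensitive roots and not in tolerant roots started from a different level in the controls of the other accession. Of 1159 genes that rose in sensitive roots and were not called in tolerant roots, 705 (60.8%) had all 3 tolerant controls above all 3 sensitive controls and 39 had them all below, against 25.5% and 21.9% of all tested genes. After 5 days of salt, tolerant libraries lay all below the sensitive ones in 212 of the 1159 (18.3%) and all above in 13. Over all tested genes the shares under salt were 11.9% and 13.1%. Of 663 genes that fell in sensitive roots and were not called in tolerant roots, 387 had tolerant controls all below the sensitive ones and 44 all above. Of the rising wall genes 13 of 21 (61.9%) had tolerant controls all above, and of the peroxidases 13 of 18 (72.2%). Of the rising lignin genes 19 of 23 (82.6%) did, and of the suberin genes 10 of 15 (66.7%). The share was 50.1% over all 1660 rising genes and 60.8% over the 1159 above, so the wall and suberin shares lay near the latter. The sensitive controls enter both the response and this comparison of controls, so the shares are a description.

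Heat shock proteins, chaperones that bind unfolding proteins, rose in 10 of 43 tested genes, or 23.3%, and fell in 1. In tolerant roots 6 rose and 1 fell, and the median change was 0.70 there against 0.51 in sensitive roots. The 16.9 kDa class I heat shock protein 1 (emFS24.71) went from 0.91, 0.94 and 0.2 FPKM to 64.4, 150.4 and 699.6 (6.86, SE 0.67, adjusted p = 3.05e-05), against 10.1, 12.8 and 6.83 in tolerant salt libraries. Heat shock cognate 70 kDa protein (emFS18.1784) was even across replicates, from 21.1, 25.8 and 17.4 to 205, 192 and 220.3 (3.22), and rose by 3.04 in tolerant roots. Antioxidant enzymes rose in 4 of 34 and fell in 2. L-ascorbate peroxidase 1 (emOS55.711), which clears hydrogen peroxide from the cytosol, rose from 75.8, 119 and 85.7 to 660.2, 671 and 747 (2.90, SE 0.19, adjusted p = 2.98e-06). Catalase isozyme 3 (emOS79.123) rose from 322, 449.99 and 279 to 1189, 1153 and 771 (1.57, SE 0.27, adjusted p = 0.00105), close to the fold threshold and under it without control 3, salt 1 or salt 2. It stood at 230.2, 357 and 282 in tolerant controls and 246, 254 and 420.4 in tolerant salt, and the difference of 1.5 did not pass (adjusted p = 0.0874).

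Of 11 tested respiratory burst oxidase genes, whose products make superoxide outside the cell, 2 neighbours on chromosome 3 rose and 0 fell. Both were called as rising in tolerant roots too. The one named protein C (emFS18.1751) went from 4.07, 10.7 and 5.30 FPKM to 53.4, 30.8 and 27.2 (2.34, SE 0.32, adjusted p = 2.51e-04), and that named protein H (emFS18.1752) rose by 2.09. Glutathione S-transferases, which attach glutathione to toxic molecules, rose in 8 of 48 and fell in 4, against 6 and 2 in tolerant roots. One named GSm (emFS18.851) was even across replicates, from 6.63, 7.19 and 7.34 to 69.9, 72.5 and 80.3 (3.22, SE 0.10, adjusted p = 4.74e-08). Flavonoid genes rose in 9 of 45 and fell in 3, against 7 and 3 in tolerant roots. Chalcone synthase C2 (emFS15.122), the entry enzyme, went from 3.37, 4.59 and 2.65 to 21.8, 49.2 and 79.7 in sensitive roots (3.34).

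Hormone and transcription factor genes were mixed. Of 88 tested auxin genes 9 rose and 5 fell, against 0 and 2 in tolerant roots, and the rises were 4 without control 3 and 5 without salt 1, while the falls were 8 without control 1 or salt 3. SAUR40 (emOS99.637), of a family of short-lived proteins that promote cell expansion, fell from 683, 396 and 688 FPKM to 25.9, 13 and 10.1 (-5.15, SE 0.37, adjusted p = 4.43e-06) and by 6.61 on the log2 scale in tolerant roots. The auxin efflux carrier 1c (emOS49.283) went the other way, from 1.19, 1.76 and 0.56 to 34.3, 6.54 and 7.27 (2.62, adjusted p = 0.00790). Jasmonate and ethylene genes rose in 12 of 64 and fell in 5. Linoleate 9S-lipoxygenase 2 (emFS4.532) rose from 9.0, 44.1 and 54.6 to 1049, 429 and 214 (3.97, SE 0.96, adjusted p = 0.00688), and 1-aminocyclopropane-1-carboxylate synthase 7 (emFS26.308), an enzyme of ethylene synthesis, fell from 17, 10.9 and 16 to 0, 0.06 and 0.64 (-3.68, SE 0.24, adjusted p = 2.57e-06).

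Homeobox-leucine zipper (HD-Zip) factors rose in 8 of 32, or 25%, and NAC factors in 9 of 73, with 1 falling in each list. MYB factors rose in 13 of 122 and fell in 4, the strongest being MYB57 (emOS80.46), from 0.09, 0.17 and 0.06 to 18.2, 6.02 and 23.9 (3.76, SE 0.40, adjusted p = 4.70e-05). WRKY factors, known mainly from defence, fell in 10 of 69 and rose in 4. Ethylene response and dehydration-responsive element-binding (DREB) factors fell in 15 of 95 and rose in 9, and without control 1, 2 or 3 the rises were 5, 5 and 4. DREB factors are known as early regulators of cold and drought genes. Of 13 tested DREB genes 6 fell while 0 rose, a grouping made after the values were seen. The DREB 1A gene emOS91.671 fell from 47.3, 101 and 75.1 to 1.05, 1.93 and 7.67 (-4.27, SE 0.78, adjusted p = 0.00135). Calcium sensors and their kinases, which relay early stress signals, fell in 19 of 111, or 17.1%, and rose in 2. CBL-interacting protein kinase 31 (emFS4.2039) fell from 127, 99.3 and 119.8 to 14.8, 19.8 and 21.2 (-2.58, SE 0.20, adjusted p = 7.27e-06). In tolerant roots 3 HD-Zip and 6 NAC genes rose and 0 fell, 7 MYB genes rose and 7 fell, 1 WRKY gene rose and 4 fell, 2 ethylene response and DREB genes rose and 3 fell, and 1 calcium gene rose and 9 fell.

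Growth machinery was hardly called. Of 85 tested genes of histones, cyclins and DNA replication 1 rose and 1 fell, and of 192 cytosolic ribosomal protein genes 1 rose and 1 fell, although the ribosomal median lay above that of all genes. The ribosomal gene that rose, named L10 (emOS55.1000), went from 0.62, 0.13 and 0.36 FPKM to 113, 203 and 625 (7.50, SE 0.55, adjusted p = 4.98e-06) against a list median of 0.60. Amino acid transporters rose in 8 of 53 and fell in 4. Genes of fatty acid, phospholipid and galactolipid metabolism rose in 13 of 129 and fell in 7, close to the shares of all genes. Arginine and polyamine genes rose in 2 of 35 and fell in 3.

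Photosynthesis genes rose in roots, but unevenly. Of 44 tested leaf-marker genes 29 rose and 1 fell in sensitive roots, with chlorophyll a-b binding protein 2 (emFS18.299) going from 1.29, 1.34 and 0.91 FPKM to 457, 70.9 and 8.11 (4.95, SE 1.32, adjusted p = 0.0112). Salt library 1 was the highest in each of the 6 such genes named here by the size of their change, and without it 19 rose. The summed leaf-marker level given above follows the same order over the salt libraries, and its part in other rises, such as that of the plastid fructose-bisphosphate aldolase (emOS108.36) from 0.77, 2.48 and 1.70 to 393, 197 and 20.5 (5.54), was not tested. In salt library 3 the summed leaf markers, at 530 FPKM, lay within the 473 to 572 of the controls.

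A set of 110 of the 1078 falling genes, or 10.2%, was uneven among the sensitive controls. These genes, picked after the values were seen and given with no test, were under 1 FPKM in all 6 tolerant libraries. They also had sensitive control 1 more than 3 times below controls 2 and 3. The ratio of control 1 to the lower of controls 2 and 3 was at most 0.321 inside the set. Among the other falling genes under 1 FPKM in all 6 tolerant libraries it was at least 0.361. Without the limit on tolerant roots, 162 of the 1078 falling genes had control 1 more than 3 times below controls 2 and 3. The summed level of the 110 genes was 610, 8567 and 7479 FPKM in the sensitive controls and 210, 600 and 22.1 in salt libraries 1, 2 and 3. The 3 salt sums lie below the 3 control sums, control 1 being close to salt library 2. The genes were drawn from those called as falling, so the choice fixed this fall as well as the spread among the controls. In 57 of the 110 salt and control libraries did not overlap. The set held 8 of the 10 protease inhibitors that fell, 5 of 7 senescence genes, 3 of 7 lignin genes and 2 of 4 cytokinin and gibberellin genes, and so changes how those lists read.

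Subtilisin inhibitor 1 (emOS79.213) was the strongest member, with 87.8, 1267 and 1052 FPKM in controls and 9.76, 80.5 and 0 in salt (-5.68, SE 1.38, adjusted p = 0.00683). It was listed at 0 in all 6 tolerant libraries. Inorganic phosphate transporter 1-11 (emFS4.2048) had 7.26, 105 and 88.3 in controls and 0.29, 3.00 and 1.06 in salt (-4.28, SE 0.81, adjusted p = 0.00173). Ammonium transporter 3 member 1 (emFS4.386) had 9.80, 172 and 143 against 2.88, 15.6 and 0.03 (-4.0, SE 1.08, adjusted p = 0.0121), and glycerol-3-phosphate 2-O-acyltransferase 6 (emOS99.927) had 3.55, 54.5 and 48.8 against 0.73, 3.60 and 0 (-3.54, adjusted p = 0.00612). In the last pair the groups overlap through control 1, and the ammonium transporter was not called without control 3. In rice or Medicago, relatives of the phosphate, ammonium and acyltransferase genes are known from roots colonised by arbuscular mycorrhizal fungi, where they serve phosphate uptake, ammonium uptake and the supply of lipids to the fungus. Whether fungi were present in any container was not tested.

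**Figure D3:**
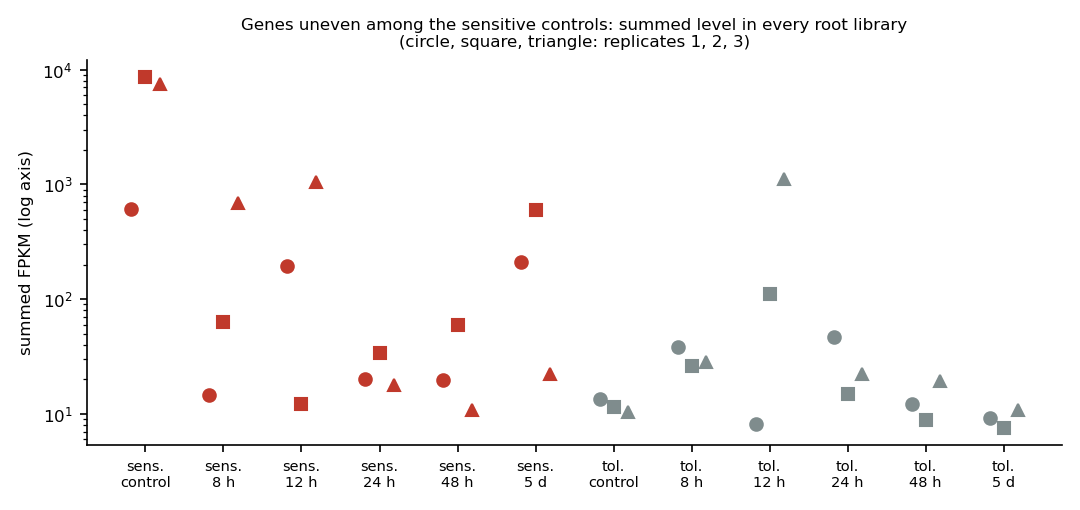
Summed FPKM of the 110 uneven genes in each of the 36 root libraries on a log axis, red for sensitive and grey for tolerant roots, with circle, square and triangle for replicates 1, 2 and 3. Sensitive controls 2 and 3 stand at 8567 and 7479, and the highest of the other libraries are the 12 h libraries 3 of sensitive (1058) and tolerant roots (1105).

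The question of which genes of the sensitive response stay still in tolerant roots was put through the difference between the accessions. Of the 2738 called genes 915 were called in tolerant roots in the same direction, 1 in the opposite direction, and 1822, or 66.5%, were not called there. Being called in one accession alone does not show a difference. The difference itself was called in 75 genes, or 0.353% of those tested, with 31 more positive and 44 more negative in sensitive roots. Of the 2738 sensitive genes 50 were among them, and 24, with 11 that rose and 13 that fell, also changed by less than 0.5 on the log2 scale in tolerant roots. The count rested on single libraries. Without tolerant salt library 3 the difference was called in 858 genes (610 more positive and 248 more negative), without sensitive salt library 3 in 347 and without sensitive control 1 in 186 (25 and 161). Without sensitive salt library 1 it was called in 48, without tolerant controls 1, 2 and 3 in 10, 14 and 13, without tolerant salt libraries 1 and 2 in 9 and 13, and without sensitive controls 2 and 3 in 11 and 5. With both salt libraries 3 left out, a setting chosen after the values were seen, it was called in 1626 (1163 more positive and 463 more negative), which held 73 of the 75, and 519 genes were then unchanged in tolerant roots. The direction of the unchanged genes was not stable either. Of them 45.8% rose as given, 32.1% when each library was scaled to the same sum, 78% without both salt libraries 3, 76.4% without tolerant salt library 3, and 5.98%, 75% and 0% without sensitive controls 1, 2 and 3. The genes named below are those of the fit with all 12 libraries.

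Among the 11 that rose, 2 carry mannan in their names. Glucomannan 4-beta-mannosyltransferase 1 (emOS79.766), which builds the mannan backbone of a wall polysaccharide, had 2.70, 4.54 and 1.59 FPKM in sensitive controls and 48.2, 44.2 and 47.9 in salt (3.67, SE 0.40). In tolerant roots it had 17.9, 14.7 and 31.5 in controls and 14.6, 13.2 and 36.2 in salt, and the difference was 3.74 (SE 0.56, adjusted p = 0.0263). MANNAN SYNTHESIS-RELATED 1 (emOS91.501), needed for mannan synthesis in Arabidopsis, went from 0.94, 1.44 and 0.61 to 7.74, 5.48 and 6.56 in sensitive roots and stood at 5.72, 3.65 and 5.52 before and 2.72, 2.74 and 6.63 after salt in tolerant roots (difference 2.25, adjusted p = 0.0461). For both genes the tolerant controls lay above the sensitive controls, and the call of the difference was lost in 9 of 22 alternatives for the first and in 14 of 21 for the second.

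Cation/H(+) antiporter 19 (emOS59.69), of the CHX family that exchanges potassium or sodium for protons, was the only ion carrier of the 24. It had 10.6, 13.8 and 10.2 FPKM in sensitive controls and 36.9, 41.1 and 60.2 in salt (1.89, SE 0.28), against 60.3, 53.9 and 67.9 and then 30.7, 65.9 and 63.3 in tolerant roots (difference 2.14, adjusted p = 0.0461). Sensitive roots under salt thus came near the level that tolerant roots held in both conditions. CONSTANS-LIKE 5 (emOS164.344), a zinc finger factor, went from 34.2, 30.9 and 25.7 to 122, 116 and 120.2 and had 66.2, 68.5 and 48.2 and then 63.1, 83.3 and 93.4 in tolerant roots (difference 1.57, adjusted p = 0.0263). Phosphoenolpyruvate carboxylase kinase 2 (emOS174.778), which activates the enzyme that fixes bicarbonate into organic acids, went from 12.7, 25.9 and 16.5 to 70.5, 85.3 and 61.7 (difference 2.16, adjusted p = 0.0405). Methylesterase 7 (emFS18.22) was low in tolerant roots throughout, at 1.44 to 2.82, and rose from 3.05, 5.51 and 4.83 to 25.1, 28.2 and 28 in sensitive roots (difference 2.19, SE 0.27, adjusted p = 0.0185).

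Among the 13 that fell, 6 were under 1 FPKM in all 6 tolerant libraries, where no fall could be seen. Galactinol synthase 2 (emOS100.207) was such a gene, with 5.76, 5.93 and 4.59 FPKM in sensitive controls, 0.24, 0.33 and 0.26 in salt, and at most 0.31 in tolerant roots (difference -2.06, SE 0.19, adjusted p = 0.00357). It runs opposite to galactinol synthase 1 above. A pair of neighbouring genes on chromosome 4 (emOS79.944 and emOS79.945), both without a functional name, fell by 3.27 and by 1.91 on the log2 scale and had at most 0.43 FPKM in tolerant roots. Other members were expressed in tolerant roots. The gene named loricrin after a database match (emFS4.677) fell from 483, 502 and 466 to 111, 151 and 125 in sensitive roots and had 520.1, 395 and 448 and then 572, 535 and 329 in tolerant roots (difference -1.95, SE 0.29, adjusted p = 0.0241). FT-interacting protein 1 (emOS94.99), whose Arabidopsis namesake helps carry a flowering signal, fell from 7.80, 6.91 and 7.71 to 0.58, 1.07 and 0.57 against 5.93, 6.24 and 6.45 and then 7.34, 7.2 and 3.18 (difference -2.17, adjusted p = 0.0324).

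Cytochrome P450 94A1 (emOS169.389), a fatty acid hydroxylase by name, was the 1 gene called in opposite directions. It fell from 27.9, 24.9 and 23 FPKM to 5.91, 11.6 and 4.78 in sensitive roots (-1.72) and rose from 8.40, 6.65 and 7.62 to 24.0, 49.8 and 36.1 in tolerant roots (2.08), a difference of -3.80 (SE 0.42, adjusted p = 0.00833). WRKY factor 46 (emFS4.2091) fell from 15.5, 15.5 and 13.8 to 1.90, 3.79 and 2.43 and had 18.6, 19.99 and 24.8 and then 74.5, 40.8 and 21.6 in tolerant roots (difference -3.05, adjusted p = 0.0372).

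**Figure D4:**
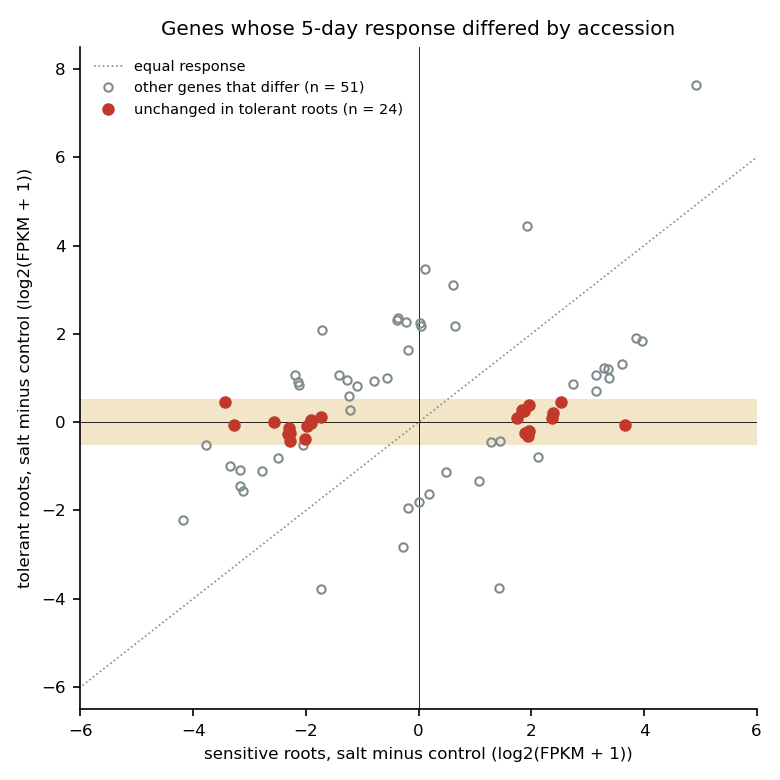
Log2 fold change in sensitive roots (horizontal) against tolerant roots (vertical) for the 75 genes whose response differed between accessions, with the 24 unchanged in tolerant roots filled in red inside the band of 0.5 on either side of 0. The points farthest from the dotted line of equal response include emOS163.179 (1.42 against -3.76) and P450 94A1 (-1.72 against 2.08).

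The earlier salt times were compared with the same controls, by counts of called genes and not by which genes they were. These groups are also labelled 400 mM NaCl, but the methods describe salt raised in daily steps to that concentration. Whether they had met the full dose is not settled, so time and dose cannot be told apart. In a fit of all 36 root libraries, with 22194 genes tested, sensitive roots had 2865 called genes at 8 h (12.9%), 2538 at 12 h (11.4%), 2640 at 24 h (11.9%), 2078 at 48 h (9.36%) and 2803 at 5 days (12.6%), each against the same 3 controls. The count at 5 days was close to that at 8 h, but the split was not the same, with 1703 rising and 1100 falling at 5 days and 1234 rising and 1631 falling at 8 h. The median of all genes was lower by 0.17 at 8 h and by 0.17 at 24 h, and with median-ratio scaling the 8 h split became 1523 rising and 1291 falling. LEA group 3 (emFS1.189) was already at 342, 2054 and 1316 FPKM at 8 h, highest at 24 h with 6511, 5206 and 4593, and lower again at 5 days. PIP2-5 (emFS22.468) had 26.1, 176 and 36.6 at 8 h and 1142, 1295 and 1289.6 at 24 h, and stayed there. SAUR40 (emOS99.637) was low at all times from 8 h, with 4.16 to 42.8.

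The wall genes were not part of a steady rise. Of 96 tested wall genes 5 rose and 8 fell at 8 h, 11 and 4 at 12 h, 2 and 14 at 24 h, 0 and 5 at 48 h, and 23 and 2 at 5 days. Expansin-B3 (emOS55.1776) had 55.5, 18.7 and 198 FPKM at 12 h, 0.07, 0.31 and 0.8 at 24 h and 1.37, 6.28 and 28.6 at 48 h, and glucomannan 4-beta-mannosyltransferase 1 (emOS79.766) had 38, 10.4 and 22.6, then 0.9, 2.07 and 1.5, then 1.97, 6.56 and 15.4. Both were thus high at 12 h, low at 24 h and high again at 5 days. NRT2.3 (emFS18.927) also swung, with 51.5, 37.6 and 290.2 at 8 h, 1196, 173 and 1309 at 24 h and 15.9 to 52.2 at 5 days. Nitrate and ammonium genes as a list fell at every time, in 30, 19, 27, 23 and 25 of 99 tested genes.

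**Figure D5:**
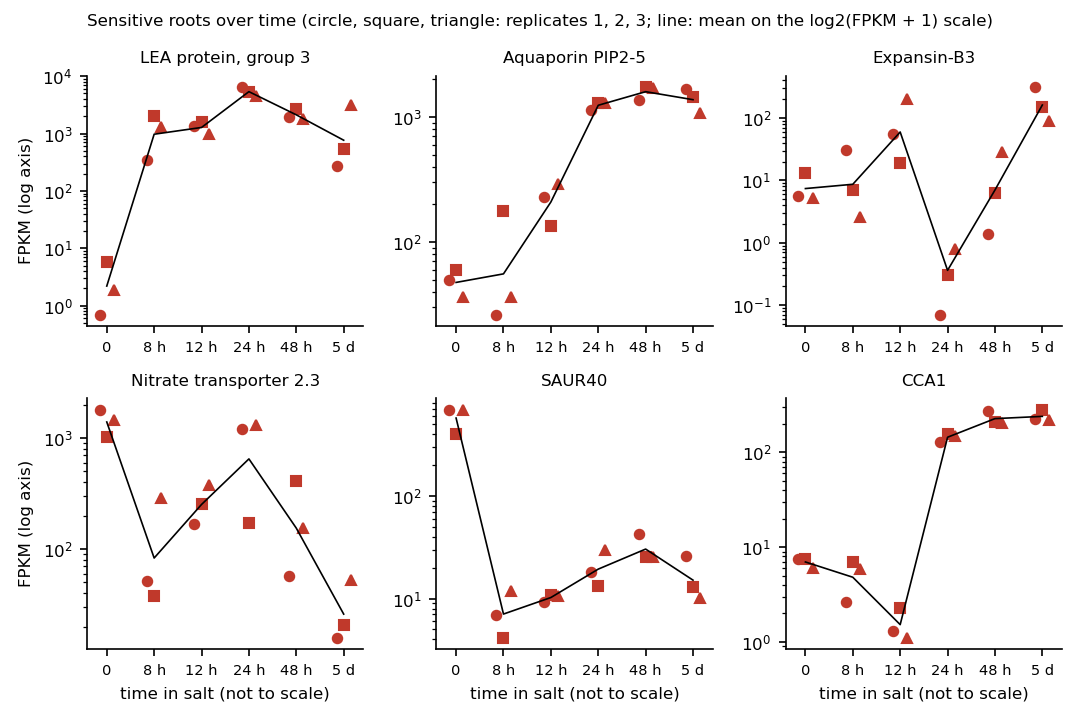
FPKM of 6 genes in the 18 sensitive root libraries on log axes, by time in salt (spacing not to scale), with circle, square and triangle for replicates 1, 2 and 3 and a line through the means on the log2(FPKM + 1) scale. PIP2-5 and CCA1 rose by 24 h and stayed up, SAUR40 stayed down, and Expansin-B3 and nitrate transporter 2.3 changed direction between times.

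Clock genes differed strongly between the salt and control libraries in both accessions. Of 20 tested clock genes 3 rose and 4 fell. CCA1 (emOS184.45), a morning factor of the plant clock, had 7.53, 7.55 and 5.98 FPKM in sensitive controls and 223, 282 and 219.8 after 5 days (4.92, SE 0.17, adjusted p = 1.03e-07). In tolerant roots it had 0.94, 1.44 and 1.12 and then 489, 482 and 335 (7.64), and the difference of -2.72 passed the test (SE 0.24, adjusted p = 0.00357). Among the sensitive libraries it had 1.11 to 6.93 at 8 and 12 h and 130 to 273 at 24 and 48 h. The related REVEILLE 2 (emFS4.266) went from 3.96, 3.60 and 3.30 to 120.0, 149.7 and 127 (4.85), and the evening regulator PRR1 (emOS174.810) fell from 43.5, 49.98 and 42.5 to 8.51, 4.67 and 10.04 (-2.46). The sources used here do not give the hour of harvest, so salt and hour cannot be told apart in these genes, nor in any other gene with a daily rhythm. PCL1 (emFS4.1068), also a clock factor, fell by 1.73 in sensitive and by 3.78 in tolerant roots on the log2 scale (difference 2.05, adjusted p = 0.0263).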

How the data were processed

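RNA from 72 samples was sequenced. The submitters' processing notes name Trimmomatic 0.32 and HISAT2 2.1.0, for read trimming and for alignment to a genome whose build the sources used here do not name. The authors deposited FPKM per gene model, which their methods write as RPKM. The authors tested with DESeq2, which needs counts, so no count test was run here. FPKM were taken as log2(FPKM + 1), genes at 1 FPKM or more in at least 3 of 12 root libraries were kept, and 4 groups were fitted with limma 3.58.1 (R 4.3.3; moderated test with trend, two-sided, Benjamini-Hochberg). A gene counted as called when both thresholds of the methods were met (adjusted p 0.05 or less, log2 change of 1.5 or more in size). The difference between accessions was the interaction contrast. Gene names are those of the deposited annotation. Lists were made from words in these names, and up to 6 called genes with the largest change were eligible for naming per list, beside the 15 largest non-overlapping changes per direction and the 10 largest per sign among genes unchanged in tolerant roots. P450 94A1, WRKY 46, the salt stress-induced protein, CASP-like 2U1 and PCL1 were singled out after their values were seen. Members and lists were chosen with earlier results of these data known. Families counted by name inside a list were grouped after the values were seen. Read depth is unknown and was estimated only relative to other libraries, from 79 low genes. Pseudocounts, filters, scalings, the fold threshold, a replicate block, all 36 root libraries and leaving out single libraries were tried as alternatives. Scripts were tested on simulated data.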

Additional observations from a re-analysis of the deposited data

Results flagged for a closer look

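The salt response differed between the accessions in 75 genes by the interaction test in limma, and the genes named for it are given here as sensitive minus tolerant log2 change. The largest was the salt stress-induced protein emOS163.179 (5.18), which fell from 124, 64.2 and 29.4 to 3.84, 4.13 and 2.97 FPKM in tolerant roots and had 0.09, 0.23 and 0.06 before and 0.31, 1.06 and 9.09 after salt in sensitive roots. More positive in sensitive roots were also emOS79.766 (3.74), emFS12.12 (2.3), emOS99.694 (2.26), emOS91.501 (2.25), emFS18.22 (2.19), emOS174.778 (2.16), emOS59.69 (2.14), the EXORDIUM-like 2 gene emFS0.104 (2.07), emFS4.1068 (2.05), the receptor kinase gene emFS18.72 (1.64), emFS22.1359 (1.63) and emOS164.344 (1.57).

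More negative in sensitive roots were emOS184.26 (-3.89), emOS169.389 (-3.80), emOS79.944 (-3.21), emFS4.2091 (-3.05), emOS184.45 (-2.72), the acidic glucan endo-1,3-beta-glucosidase gene emFS12.439 (-2.58), emOS94.99 (-2.17), emOS100.207 (-2.06), emOS101.119 (-2.05), emFS4.677 (-1.95), emOS79.945 (-1.94), the phospholipase C4 gene emOS66.37 (-1.90) and emFS22.456 (-1.90). Among these, emOS79.944, emFS12.439, emOS100.207, emOS101.119 and emOS79.945 were under 1 FPKM in all 6 tolerant libraries. A fall could not be seen there, so their values do not show that the accessions respond differently. Of the 75 genes 2 kept their call in every alternative tried.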

How the results depend on the processing

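The 2738 calls of sensitive roots became 1330 with a pseudocount of 5 and 4616 with a fold threshold of 1, and 2352 to 2881 with single libraries left out. The 1220 calls of tolerant roots became 1842 with a pseudocount of 0.1, 636 with one of 5, 2422 with a fold threshold of 1, and 1134 to 1325 with single libraries left out. The 75 genes that differed between accessions became 44 with a pseudocount of 5, 39 at a mean of at least 5 FPKM, 114 with a fold threshold of 1, 125 with all 36 root libraries, 5 to 858 with single libraries left out, and 1626 without library 3 of both 5-day salt groups. The 24 genes unchanged in tolerant roots became 13 at a mean of at least 5 FPKM, 44 with a fold threshold of 1, 64 with all 36 libraries, 1 to 263 with single libraries left out, and 519 without library 3 of both salt groups. With a pseudocount of 5 the earlier times gave 1465, 1277, 1330 and 1110 calls at 8, 12, 24 and 48 h, and with 0.1 the 24 h count was 4040. With the replicate block the counts were 2681 for sensitive roots, 1194 for tolerant roots, 13 for the difference and 5 for the unchanged genes. The deviations of same-numbered libraries 1, 2 and 3 correlated at 0.016, 0.072 and 0.012 between control and salt of sensitive roots, at -0.271, 0.41 and 0.082 between those of tolerant roots, and at -0.386, 0.134 and -0.345 between the salt groups, so not every pair was over 0.1 and the numbers were not taken to pair the samples. The causes of these shifts were not tested. Of 256 named genes 191 kept their call in every alternative in which they were tested, 65 lost it in at least 1, and 0 reversed. Some of the 191 were not tested in every alternative. Leaving out the 110 uneven genes, chosen after seeing the data, left 968 of 1078 falling genes.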
